A study of Mus musculus with 4 samples.

Results

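The proteasome genes were taken by name, as all genes in either peak list whose symbol starts with Psma, Psmb, Psmc, Psmd, Psme, Psmf or Psmg followed by a digit. The rule found 36 genes among 12182 genes with a peak. They carried 47 of 21179 peaks in the knockout list and 32 of 20766 peaks in the control list. The lists come from an m6A map of hearts of 4-day-old mice. N6-methyladenosine (m6A) is a methyl mark on adenosines of RNA, and MeRIP-seq finds it by sequencing RNA fragments that an anti-m6A antibody pulls down (IP) beside the same RNA before pull-down (input). The knockout group carried the genotype label Wtap-CKO and the control group Wtapflox/flox, which names the floxed allele on both copies of the gene. The knockout libraries carry WBKO in their titles, and their genotype label was followed here. Wtap encodes an adaptor subunit of the complex that writes m6A, and the labels do not say in which cells, or by which promoter, it was deleted. RNA of 8 knockout mice and of 7 control mice was pooled, giving 1 IP and 1 input library per genotype, 4 libraries in all.

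There were no replicates, so no difference between the genotypes could be tested, and mouse-to-mouse spread is hidden in each pool. The lists hold no read counts, and the depth of the libraries was unknown. A fold is the enrichment of IP over input that the authors' peak caller gave to a peak, q is its p-value after correction for multiple testing, and log10 q is more negative for a stronger call. Both depend on the reads that cover a transcript. A missing peak can therefore mean less methylation, less RNA or fewer reads, and these cannot be told apart. Exact 95% intervals of shares cover counting error only. Positions are those of mouse build GRCm39. Which part of a transcript a peak lies in, and its sequence, were not analysed here. Wtap itself had 4 knockout and 3 control peaks, and peaks in an RNA do not check its deletion. All 10 heart muscle markers looked at, Myh6 and Tnnt2 among them, had peaks in both lists (28 knockout and 49 control peaks together). Ttn had 4 knockout and 21 control peaks and Ryr2 had 2 knockout and 6 control peaks. Without these genes, left out after their values were seen, each list held 22 peaks. The 4 endothelial markers (9 knockout and 7 control peaks) and the 4 fibroblast markers (14 and 9) also had peaks in both lists. Of 4 immune cell markers, Ptprc, Cd68 and Adgre1 had none in either list. The part of the cell makeup of the pools in the counts below was not tested, and fewer cells of a type cannot be told apart from less RNA per cell.

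The proteasome is the main protease of the cytosol and nucleus and degrades proteins tagged with ubiquitin chains. Its 20S core is a barrel of outer alpha rings, which form the gate, and inner beta rings, which hold the proteolytic sites. The 19S particle caps the barrel. Its non-ATPase subunits bind the ubiquitin chain and cut it off, and a ring of ATPases unfolds the substrate and threads it into the core. Other caps (the PA28 family and PA200) open the core without ubiquitin, and dedicated chaperones put the rings together. In heart muscle the proteasome degrades sarcomere proteins that muscle ubiquitin ligases have tagged.

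More proteasome genes had a peak in the knockout list only than in the control list only. Peaks were listed in the knockout only for 10 of the 36 genes (27.8%, 14.2 to 45.2), while 11.9% of all genes with a peak were of that kind. Peaks in the control only were listed for 1 gene (2.78%, 0.0703 to 14.5), against 10.5% of all genes. The other 25 genes (69.4%, against 77.6% of all genes) had peaks in both lists. The knockout list held more peaks of a gene for 14 members (38.9%, against 30.4% of all genes), the control list for 2 (against 25.6%), and 20 members had the same number in each. In total the knockout list held 1.47 times as many proteasome peaks as the control list and 1.02 times as many peaks of all genes.

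These counts depend on how small a fold is accepted. When only peaks with a fold of at least 4 were used in both lists, 15 of 29 members had peaks in the knockout only (51.7%, against 16.4% of all genes). Peaks in the control only were then found for 5 (17.2%, against 15.0% of all genes). Some genes, such as Psmc2 (control fold 3.33), became knockout only because their control peak fell under this cut. When the 20111 peaks with the smallest q were taken from each list, 9 of 35 members had knockout peaks only (25.7%, against 11.2% of all genes) and 1 had control peaks only (2.86%, against 10.9%).

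**Figure D1:**
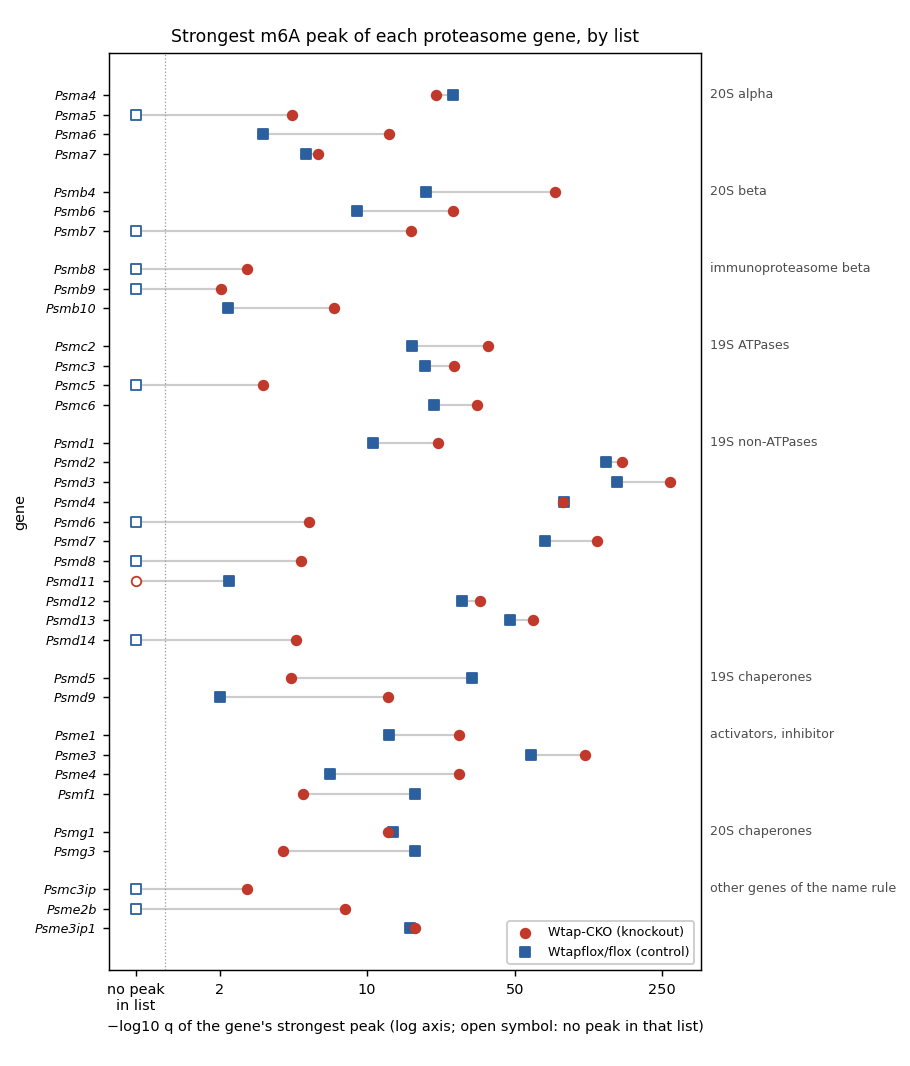
Strongest peak of each of the 36 genes in the knockout list (circles) and the control list (squares), as −log10 q on a log axis, grouped by role in the complex. Open symbols left of the dotted line mark genes with no peak in that list: 10 genes lack one in the control list and Psmd11 lacks one in the knockout list.

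Of the 8 genes for alpha subunits of the core, 4 had a peak. For this and the counts of other roles below, 47.9% of all protein-coding genes in RefSeq had a peak in either list. Psma4 had a knockout peak with a fold of 2.40 (log10 q -21.2) and a control peak with a fold of 2.49 (-25.4), on chromosome 9 from base 54864924, and the calls were alike. Psma7 had folds of 15.0 and 5.88 with similar q (log10 q -5.88 in the knockout and -5.16 in the control). Its knockout peak covered 508 exonic bases and its control peak 120, so these folds are of unlike stretches. In Psma6 fold and q ran opposite ways: the knockout peak had a fold of 2.33 and a log10 q of -12.7, the control peak a fold of 8.02 and a log10 q of -3.21. In this gene the larger fold was not the stronger call. Psma5 had a knockout peak only, on chromosome 3 at 108164477 to 108169033 (fold 4.13, log10 q -4.41). No peak was listed for Psma1, Psma2, Psma3 or Psma8.

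The inner ring gave peaks for 3 of its 7 standard subunits. Psmb4, which encodes a subunit without a proteolytic site, was among the strongest members. Its knockout peak, from 94794013 to 94794272 of chromosome 3, held 2 exonic blocks (fold 5.20, log10 q -77.5), and the control peak at 94794095 to 94794272 (fold 2.87, -19.0) held 1 block. Psmb6 encodes the caspase-like subunit, which cuts after acidic residues. It had folds of 2.60 in the knockout and 1.89 in the control, with a log10 q of -25.4 and -8.93. Psmb7 encodes the trypsin-like subunit, which cuts after basic residues, and had the strongest knockout peak of any member without a control peak (chromosome 2, 38533383 to 38533950, fold 4.77, log10 q -16.1). Psmb5, the chymotrypsin-like subunit gene, had no peak in either list. RefSeq lists pseudogenes of Psma5, Psmb5, Psmb6 and Psmb7, and the labels do not say how reads were shared out between such copies.

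Interferon-inducible subunits replace the proteolytic ones in the immunoproteasome, which favours peptides for antigen presentation. Psmb10 had a peak in both lists (fold 2.54, log10 q -6.97 in the knockout, fold 1.54, log10 q -2.19 in the control). These peaks covered 240 exonic bases in the knockout and 91 in the control, with 61 in common. Psmb8 and Psmb9, which lie close together on chromosome 17, had weak knockout peaks only. That of Psmb8 at 34417351 to 34417501 had a fold of 14.1 and a log10 q of -2.69, and that of Psmb9 at 34401051 to 34401141 had 7.03 and -2.02. Immune cells express these genes strongly. Among the immune cell markers only Lyz2 had a peak, with a log10 q of -18.5 in the knockout list and -1.91 in the control list, and its part in the Psmb8 and Psmb9 calls was not tested.

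Of the 6 genes for ATPases of the 19S ring, 4 had a peak, and in the 3 with peaks in both lists the knockout peak had the larger fold and the smaller q. Psmc2 had folds of 9.48 in the knockout and 3.33 in the control on chromosome 5 (log10 q -37.4 and -16.3). For Psmc6, both lists gave the peak at 45567275 to 45567484 on chromosome 14, with folds of 12.7 in the knockout and 5.94 in the control (-33.3 and -20.8). Psmc3 also kept identical blocks, with folds of 5.34 and 3.93. Psmc5 had 2 weak knockout peaks and no control peak, at 106152969 to 106153117 (fold 1.49, log10 q -3.22) and 106153857 to 106153946 (fold 2.66, log10 q -2.49) on chromosome 11. No peak was listed for Psmc1 or Psmc4.

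The non-ATPase subunits of the 19S particle were the part of the complex with most peaks, and also the role group with most genes. All 11 genes had one, with 19 knockout and 12 control peaks in total. Psmd3, a scaffold subunit of the lid, had the smallest q of any member in each list. Its 5′ peak on chromosome 11 ran over 98573380 to 98576373 in the knockout (fold 15.9, log10 q -273) and 98573410 to 98576343 in the control (fold 6.30, -153). A second peak near 98586805 had folds of 14.1 and 3.70. Psmd2, a large scaffold subunit of the base, came next. Both lists gave its peak at 20470432 to 20470701 on chromosome 16, with folds of 13.2 and 12.3 and a log10 q of -161 in the knockout and -136 in the control. These values were close together, unlike those of Psmd3.

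Psmd4 encodes a ubiquitin receptor of the particle. Its 3′ peak at 94940005 to 94940363 on chromosome 3 was nearly alike in the lists (fold 4.78 in the knockout and 3.75 in the control, log10 q -84.4 and -85.5). Its 5′ peak was stronger in the knockout list (fold 3.43, log10 q -42.8) than in the control list (fold 2.11, -4.29). These 5′ peaks covered 240 exonic bases in the knockout and 150 in the control, while the 3′ peaks had identical blocks. Why the calls were level at the 3′ position and apart at the 5′ position was not tested. Psmd7, the partner of the deubiquitinating subunit, had its 3′ signal split differently. The knockout list held a peak on chromosome 8 over 108307310 to 108307756 (fold 4.67, log10 q -122) and another over 108307875 to 108309086 (fold 1.92, -6.33). The control list held 1 peak of 3 blocks that overlapped both, from 108307281 to 108310815 (fold 3.71, log10 q -69.3). A further knockout peak of Psmd7 lay further 5′ at 108314888 to 108315096 (fold 6.33, log10 q -18.3) and had no counterpart.

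**Figure D2:**
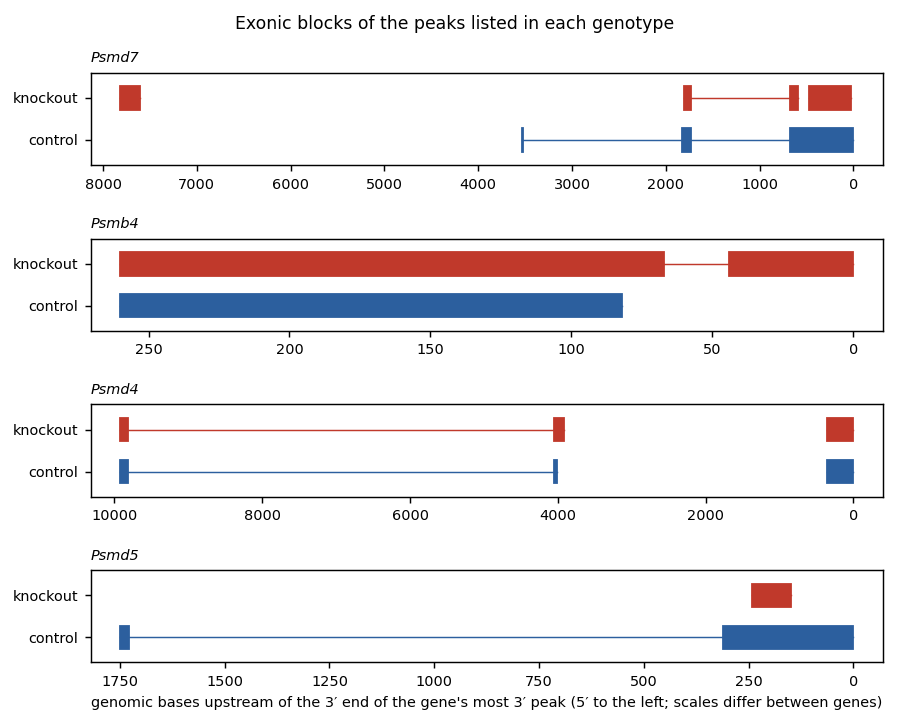
Exonic blocks (boxes, joined by lines within a peak) of the knockout and control peaks of Psmd7, Psmb4, Psmd4 and Psmd5, by distance in genomic bases from the 3′ end of the most 3′ peak, with 5′ to the left and a separate scale for each gene. In Psmd7 the knockout list has a further peak 7607 to 7816 bases upstream, and in Psmd5 the knockout peak covers part of the control peak.

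Among the other lid and base genes, Psmd12 had identical blocks in both lists with folds of 12.2 in the knockout and 3.82 in the control (log10 q -34.4 and -28.2). Psmd13 had a 3′ peak with a log10 q of -61.0 in the knockout and -47.5 in the control, and a further knockout peak at 140462299 to 140462479 on chromosome 7 (fold 6.56, log10 q -4.41). Psmd1, the other large base scaffold, shared a peak with folds of 16.9 and 16.0. It had a further knockout peak at 86061373 to 86064701 on chromosome 1 (fold 2.42, log10 q -5.66), where the list also holds a peak of the predicted gene Gm21972. Psmd6, Psmd8 and Psmd14, the last of which encodes the enzyme that cuts ubiquitin chains off the substrate, had knockout peaks only. The Psmd14 peak lay on chromosome 2 at 61542068 to 61546197 (fold 2.63, log10 q -4.61). That of Psmd6 lay on chromosome 14 at 8348839 to 8349017 (fold 2.51, log10 q -5.28). Psmd8 had a pair of them on chromosome 7, from 28875833 to 28876388 (fold 7.03, log10 q -3.60) and from 28879766 to 28879916 (fold 1.54, -4.88). Psmd11 was the single member with a control peak only (chromosome 11, 80362816 to 80362905, fold 1.68), with a weak log10 q of -2.21.

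The members with clearly stronger control peaks were genes for assembly factors and for the inhibitor, named after their values were seen. Psmd5, a chaperone of the 19S base, had a knockout peak of 91 bases on chromosome 2 (fold 2.51, log10 q -4.37), which lay inside a control peak of 331 exonic bases (fold 6.13, -31.4). Psmg3, a chaperone of the alpha ring, had folds of 2.28 in the knockout and 7.53 in the control (log10 q -3.98 and -16.8). Its peaks covered 210 exonic bases in the knockout and 329 in the control. Psmf1, which encodes the inhibitor PI31, had folds of 3.68 and 7.16 (-4.98 and -16.8), over 121 and 300 exonic bases. In each of these genes the control peak was the wider one, so the values are of unlike stretches. Not all assembly genes were of this kind. Psmg1, another alpha ring chaperone, had identical blocks with folds of 16.6 in the knockout and 10.8 in the control (log10 q -12.5 and -13.3). The peak of Psmd9, a chaperone of the base, had a fold of 7.03 and a log10 q of -12.5 in the knockout, against 1.98 and -2.01 in the control. It covered 241 exonic bases in the knockout and 181 in the control.

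All 3 core activators with a peak had the smaller q in the knockout list. Psme3, which encodes the nuclear activator PA28 gamma, had a peak on chromosome 11 from base 101207039 with folds of 19.3 in the knockout and 13.7 in the control (log10 q -108 and -59.9). Psme4, which encodes PA200, had folds of 17.8 and 5.96 (-27.1 and -6.68). Psme1, which encodes PA28 alpha, had the smaller fold in the knockout (3.50, against 4.81) but also the smaller q (-27.3, against -12.7), and a further knockout peak at 55817388 to 55817567 on chromosome 14 (fold 2.17, log10 q -4.29). Psme2, the PA28 beta gene, had no peak. Psme2b, a near copy of it, had a knockout peak only (chromosome 11, 48836868 to 48837017, fold 4.90, log10 q -7.82). Reads of such copies may have been counted for either gene, so this call is uncertain.

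The name rule also took genes that encode no subunit. Psmc3ip, named for binding Psmc3, encodes a cofactor of meiotic recombination and had a weak knockout peak only (chromosome 11, 100986113 to 100986202, fold 8.44, log10 q -2.69). Psme3ip1, which encodes a protein that binds PA28 gamma, had 2 knockout and 3 control peaks. Of these, the control peak covering 95302172 to 95302351 of chromosome 8 had no counterpart (fold 2.28, log10 q -4.45). Without these genes and Psme2b, 8 of 33 members had knockout peaks only (24.2%, against 11.9% of all genes). A control peak only was listed for 1 (3.03%, against 10.5%).

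Counted by peak, 16 of the 47 knockout peaks (34.0%, 20.9 to 49.3) had no control counterpart, that is, no control peak on the same strand with 1 or more exonic bases in common. Over all genes the share was 24.5%. Of the 32 control peaks, 2 (6.25%, 0.766 to 20.8) had no knockout counterpart, against 23.9% of all control peaks. Of the 16 knockout peaks, 12 lay in genes with no control peak and 4 in genes that had one elsewhere. This split was not counted over all genes, so it cannot be called unusual. Most of them were weak, with a median log10 q of -4.41, against -25.4 for the knockout peaks with a counterpart. Over all genes these medians were -3.20 and -11.9. Strong peaks (q at or under 1e-10) without a counterpart were those of Psmb7 and the 5′ peak of Psmd7, 2 of 24 strong knockout peaks (8.33%, 1.03 to 27.0), and the share over all genes was 4.04%. None of the 20 strong control peaks lacked a counterpart, which allows a share of up to 15.0% by the rule of 3 counts (16.8% by the exact interval), and 8.72% did over all genes. Single-list peaks of these genes were thus mostly weak calls, and so were those of all genes.

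**Figure D3:**
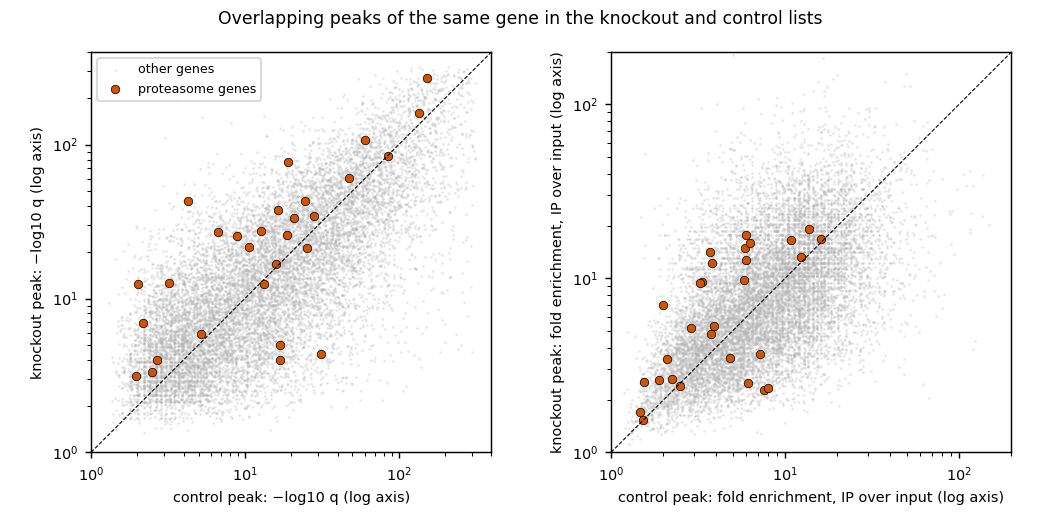
Each point is a pair of overlapping peaks of 1 gene, with the control value on the horizontal and the knockout value on the vertical log axis (left, −log10 q; right, fold), for 29 pairs of proteasome genes (orange) and the 12991 pairs of any gene with finite q (grey for the other genes). Of the proteasome pairs, 23 lie above the dashed line of equal values on the left and 22 on the right.

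Peaks with a counterpart also differed in their values. In 29 pairs, a single knockout peak and a single control peak of the same gene overlapped. The knockout peak had the larger fold in 22 pairs (75.9%, 56.5 to 89.7), against 50.8% of 13227 such pairs over all genes, and the smaller q in 23 (79.3%, 60.3 to 92.0), against 49.0%. The median fold of the pairs was 5.34 in the knockout list and 3.93 in the control list, while over all genes it was 7.19 and 7.42. The lists were called separately and the labels do not say how IP was scaled to input. These are raw values of each list set side by side, with no correction for differences between the lists. They are not a measured change in methylation. Peaks of identical blocks, which cover the same bases, were found in 7 pairs. The knockout peak had the larger fold in all 7 (58.3% of 1261 such pairs over all genes) and the smaller q in 5 (60.5%). Both measures favoured the control list in 4 of the 29 pairs, those of Psmd5, Psmf1, Psmg3 and Psma4.

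Within each list, proteasome peaks combined a small q with a modest fold, and so did peaks of translation initiation factor genes (values below). The proteasome peaks had a median log10 q of -12.5 in the knockout list and -16.1 in the control list, against -7.69 and -9.17 for all peaks. Their median fold was 4.78 in the knockout list and 3.79 in the control list, against 7.03 and 7.22 for all peaks. Strong peaks made up 24 of 47 knockout peaks (51.1%, against 43.2% of all) and 20 of 32 control peaks (62.5%, against 48.0%). Peaks that spanned more than 1 exonic block made up 42.6% of the knockout and 40.6% of the control peaks of these genes, against 23.3% and 21.2% of all peaks. A member with a peak had 1.34 peaks on average in the knockout list and 1.23 in the control list, fewer than the 1.94 and 1.93 of all genes. A peak in either list was found for 36 of the 51 protein-coding genes of this name rule in RefSeq (70.6%), and for 47.9% of its 21896 protein-coding genes.

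**Figure D4:**
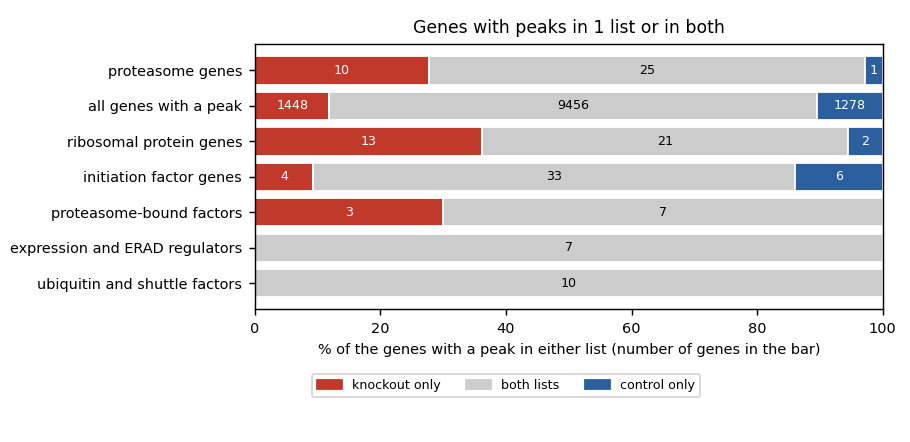
Share of genes with peaks in the knockout list only (red), in both lists (grey) and in the control list only (blue), with the number of genes in each bar, for the proteasome genes, all genes with a peak, and other gene groups. Knockout-only genes make up 27.8% of the proteasome genes, 36.1% of the ribosomal protein genes and 11.9% of all genes.

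The surplus of knockout-only genes was not seen in proteasome genes alone. Among 36 cytosolic ribosomal protein genes with a peak, 13 (36.1%, 20.8 to 53.8) had knockout peaks only and 2 had control peaks only. Among 43 genes for translation initiation factors, it was 4 (9.30%, 2.59 to 22.1) and 6. The ribosomal protein genes also had the smaller q in the knockout list in 15 of 19 pairs (78.9%), and the initiation factor genes in 28 of 54 (51.9%). Initiation factor peaks had a median log10 q of -16.9 in the knockout and -14.95 in the control list, with median folds of 6.045 and 5.28. Of them, 58.1% and 62.5% were strong, and 48.4% and 38.9% spanned more than 1 exonic block. Ribosomal protein peaks had median folds of 3.84 and 3.655, with a median log10 q of -7.51 and -7.325. The differences between these gene groups were not tested.

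Other genes of the pathway were taken from 3 lists. Their counts of genes with a peak stand beside the 47.9% of all protein-coding genes in RefSeq. Of 12 genes for proteasome components and bound factors without a Psm name, 10 had a peak, 3 of them in the knockout list only (30.0%, against 11.9% of all genes) and none in the control list only (against 10.5%). These were Adrm1, which encodes another ubiquitin receptor of the 19S particle (fold 14.1, log10 q -2.61), Pomp, which encodes the chaperone that matures the core (2.47, -3.14), and Ecpas, which encodes a protein that binds and regulates the complex (1.79, -2.72). All 3 calls were weak. Sem1, the smallest lid subunit gene, had its strongest peak at a log10 q of -23.4 in the knockout and -2.51 in the control. Zfand5, which encodes an activator of the proteasome in muscle wasting, went the other way, with -4.36 in the knockout and -75.1 in the control.

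Genes that act upstream of the proteasome had peaks in both lists where they had any. Of 9 genes for regulators of proteasome gene expression and of protein removal from the endoplasmic reticulum, 7 had a peak, all 7 in both lists (exact interval from 59.0%). Of 11 genes for ubiquitin, its activating enzymes and its shuttle factors, 10 had a peak, all 10 in both lists (from 69.2%). Both intervals hold the 77.6% of all genes with a peak. Nfe2l1, which encodes the transcription factor that raises proteasome genes when the proteasome is inhibited, had 6 knockout and 3 control peaks, and the log10 q of the strongest was listed as minus infinity in both lists (fold 12.4 in the knockout and 12.2 in the control). Ddi2, which encodes the protease that activates this factor, had 4 knockout and 3 control peaks (strongest log10 q -46.6 in the knockout and -76.4 in the control). Uba1, the main ubiquitin-activating enzyme gene, had 1 peak in each list with a log10 q of -177 in the knockout and -131 in the control. Of the shuttle factor genes, Ubqln2 had 4 knockout and 3 control peaks, the strongest at -13.7 in the knockout and -24.6 in the control, and Ubqln4 had 3 in each, the strongest at -40.5 in the knockout and -128 in the control. In these genes the stronger call was thus found in either list.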

How the data were processed

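Samples were grouped by genotype and by IP or input. Per the series' design text, the authors ran exomePeak 2.16.0 on the IP and input pair of each genotype and kept peaks with q up to 0.05. Build GRCm39 and the tools BWA 0.7.12, fastp 0.19.11 and HOMER 4.9.1 appear in the submitters' processing notes. Per the labels' protocols, fragments of about 100 nt were sequenced in pairs of 150 bases. The deposited p-value, log10 p and log10 q of each peak (a score, as some are minus infinity) and the deposited fold, a linear ratio of IP over input, were used as given. The lists hold no read counts, so depth could not be corrected for.

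Genes were matched by Ensembl ID, and peaks by at least 1 shared exonic base on the same strand, with Python 3.11.15, numpy 2.4.6, pandas 2.3.3, scipy 1.17.1 and matplotlib 3.10.9. Shares have exact (Clopper-Pearson) 95% intervals. The overlap step was run on 19795 simulated peaks, with kept peaks shifted slightly and moved peaks put on a made-up sequence. It found 100% of kept and 0% of moved peaks. That setup fixed the outcome, so the run checks the code only and not the matching of real peaks. RefSeq (GRCm38.p6) served for gene types and pseudogene names only.

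Members and gene lists were chosen with earlier results of these data known, as was the threshold for strong peaks. All members could be named, with full values for single-list members, strong single-list peaks and the smallest q. Of the other pathway lists, at most 4 genes each were to be named, those with most peaks and those with peaks in 1 list. Further values of members, and those of Sem1 and Uba1, were chosen after they were seen. Alternatives were stricter q or fold, equal numbers of peaks, other overlaps, members without Psmc3ip and members of the role lists only. Added after seeing the data were the role lists only and all settings for pairs and for genes with more knockout peaks.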

Additional observations from a re-analysis of the deposited data

How the results depend on the processing

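Of 91 recomputed values, 81 stayed close to the reported one, within its interval for shares and within 1.5 times for counts of genes. The intervals are wide, so a share could shift much and still count as close. At a fold of at least 4, counts of 15 knockout-only members and 17 members with more knockout peaks also counted as close. Their shares (51.7% and 58.6%) lay outside the intervals of the reported shares (14.2 to 45.2 and 23.1 to 56.5). When 50% of both peaks had to overlap, 44.7% of knockout peaks (39.7% of all) and 18.75% of control peaks (38.5% of all) had no counterpart. Of strong knockout peaks, 8.33% then had none, which was under the 14.2% over all genes. The number of members with knockout peaks only was between 8 and 15 over its 7 alternatives. As shares these were 24.2% to 51.7%, against 11.2% to 16.4% of all genes. The share of pairs with the smaller q in the knockout list was between 75.0% and 88.9% over its 8 alternatives. Over all genes that share was 48.1% to 50.1%. Most values that moved did so at a fold of at least 4, which leaves fewer peaks. There, 5 genes had control peaks only and 9 of 29 had peaks in both lists (31.0%, against 68.6% of all genes), 66.7% of knockout peaks (31.7% of all) and 35.7% of control peaks (31.6% of all) had no counterpart, and the larger fold was in the knockout list in 100% of 9 pairs (51.8% over all genes). Of strong peaks, 57.9% in the knockout (13.6% over all genes) and 36.4% in the control list (21.2%) then had none. No gene (0) had control peaks only at a fold of at least 2 (10.9% of all genes) or at q at or under 0.001 (11.6%). With strong set at 1e-20, 0% of 18 knockout peaks lacked a counterpart, and 1.43% did over all genes. No paired analysis was possible because each group held 1 library.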
